A study of Mus musculus with 12 samples.

Results

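Ribosome biogenesis and nucleolar genes were followed through the RNA of BV2 cells, an immortalized mouse microglial line. The set was a written list of 38 gene names, chosen with earlier results of these data known. It was matched by name to the deposited table, and all 38 were found among its 21834 protein-coding genes. Each of the 38 also passed the filter on low counts, as did 11626 genes in all. The filter asked for at least 0.5 counts per 1000000 of the library total in at least 3 libraries. Levels are given in CPM, counts per 1000000 of the TMM-normalized library. The list was split by role into 3 RNA polymerase I subunits, 6 proteins of small nucleolar ribonucleoproteins (snoRNPs), 13 genes of the small (40S) subunit, 12 genes of the large (60S) subunit and 4 abundant nucleolar proteins. A nucleolus term was attached to 36 of them in the deposited annotation, with Ltv1 and Polr1c as the exceptions. The genes lie on 16 chromosomes.

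Ribosomes are built in the nucleolus, where RNA polymerase I transcribes a long precursor of the rRNAs. Box C/D and box H/ACA snoRNPs modify that precursor, the small subunit processome folds and cleaves it, and separate sets of assembly factors carry the 40S and 60S particles to the cytoplasm. The transcription factor Myc, working as a pair with Max, is a textbook activator of these genes, and cells that grow and divide make more of their products than resting cells do.

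The study asked how loss of annexin A2, encoded by Anxa2, alters gene expression in microglial cells after oxygen-glucose deprivation and reoxygenation (OGD/R), a culture model of ischemia and reperfusion. BV2 lines stably carrying a lentiviral pLKO.1 vector with a control shRNA (shCtrl) or with an shRNA against Anxa2 (shAnxa2), both selected with puromycin, received no treatment (CTRL) or underwent OGD/R (OGDR), and 3 libraries were sequenced for each of the 4 groups. The labels give 4 h of deprivation in medium without glucose and 12 h of reoxygenation, whereas the study's methods give a longer reoxygenation for BV2 cells, and which of them applied to these libraries is not known. The knockdown was a single shRNA in a single stable line, so what belongs to the shRNA and what belongs to the line cannot be told apart, and BV2 cells stand for microglia only as a dividing line does.

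Total counts ranged from 19521877 to 27288843 per library. Anxa2 itself had 165, 174 and 177 CPM in the shCtrl-CTRL libraries and 35.0, 44.4 and 41.8 CPM in the shAnxa2-CTRL libraries, and 251, 295 and 291 CPM against 18.2, 20.1 and 20.6 CPM after OGD/R, so its RNA was low in every library whose title names the Anxa2 shRNA. The libraries were grouped by title, because a second label called every treated library a knockdown and every untreated library wild type. The treatment label followed the titles in every library. After OGD/R, Anxa2 RNA was higher in shCtrl cells (0.70 ± 0.0643 on the log2 scale) and lower in shAnxa2 cells (-1.04 ± 0.0827). If the treated and untreated libraries of 1 line had been exchanged, the responses of both lines described here would run in the same direction, and whether they were was not tested. OGD/R changed 63.4% of the genes tested in the control line and 55% in the knockdown line, whereas 39.9% differed between shAnxa2-OGDR and shCtrl-CTRL and 44.1% between shAnxa2-CTRL and shCtrl-OGDR. Of the microglial markers, Cd68, Csf1r, Ptprc, Spi1 and Tyrobp lay between 117 and 589.8 CPM, whereas Aif1 (1.99 to 6.20 CPM), Cx3cr1 (2.67 to 6.35 CPM), Itgam (8.29 to 19.6 CPM), P2ry12 (1.35 to 2.66 CPM) and Tmem119 (1.41 to 10.7 CPM) were low, and 5 markers each of astrocytes, neurons and fibroblasts summed to under 1 CPM in every library. The 5 oligodendrocyte markers summed to 4.08 to 6.71 CPM, most of it Mbp, with the defining marker Mog at 0 in every library. In bulk RNA, fewer cells that express a gene and less of its RNA per cell cannot be told apart. The study's methods call the replicates biological, each made of technical replicates, but neither they nor the labels say that these were separate cultures, so p-values measure the spread between these libraries.

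The 38 genes together held 1.34% ± 0.010 (SD, n = 3) of all counts in shCtrl-CTRL cells, 0.886% ± 0.0227 in shCtrl-OGDR cells, 1.105% ± 0.0243 in shAnxa2-CTRL cells and 1.43% ± 0.0416 in shAnxa2-OGDR cells. The 3 libraries of each group stayed apart from those of the other groups, at 1.33% to 1.35%, 0.860% to 0.901%, 1.08% to 1.12% and 1.38% to 1.455%. The summed share was thus lowest in control cells after OGD/R and highest in knockdown cells after OGD/R. Abundant RNAs weigh most in this sum, with means over the 12 libraries of 3109 CPM for Ncl, 1115 CPM for Mybbp1a, 1010 CPM for Npm1 and 723 CPM for Nolc1. In 27 of the 38 genes the group means ran in the order shAnxa2-OGDR, shCtrl-CTRL, shAnxa2-CTRL and shCtrl-OGDR from high to low, an order held by 14.2% of all genes tested. In 32 of the 38, shAnxa2-OGDR was highest and shCtrl-OGDR lowest, against 20.3% of all genes tested.

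Per kilobase of exon, with all annotated exons of a gene merged, levels spanned a wide range. The multifunctional chaperone Npm1 (mean 379 CPM per kb over the 12 libraries) and nucleolin, Ncl (305 CPM per kb), led, followed by Mybbp1a, a nucleolar partner of Myb proteins (192 CPM per kb), and the snoRNP chaperone Nolc1 (182 CPM per kb). The lowest were Polr1b (10.5 CPM per kb), Utp15 (10.96 CPM per kb) and Wdr12 (14.8 CPM per kb). These ranks depend on the merged length, which can exceed that of any 1 transcript. Wdr12 had 176 CPM over 11955 bases, and Ncl had 3109 CPM over 10188 bases against 1010 CPM over 2665 bases for Npm1. Reads of Npm1 can be shared with its many processed pseudogenes, and its values are uncertain for that reason. For 12 of the 38 genes (Pes1, Bop1, Bysl, Wdr12, Nop56, Dkc1, Tsr1, Mybbp1a, Rrp9, Gnl3, Heatr1 and Noc2l) another gene of the table overlaps on the opposite strand, and the counting was not stated to use strand.

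**Figure D1:**
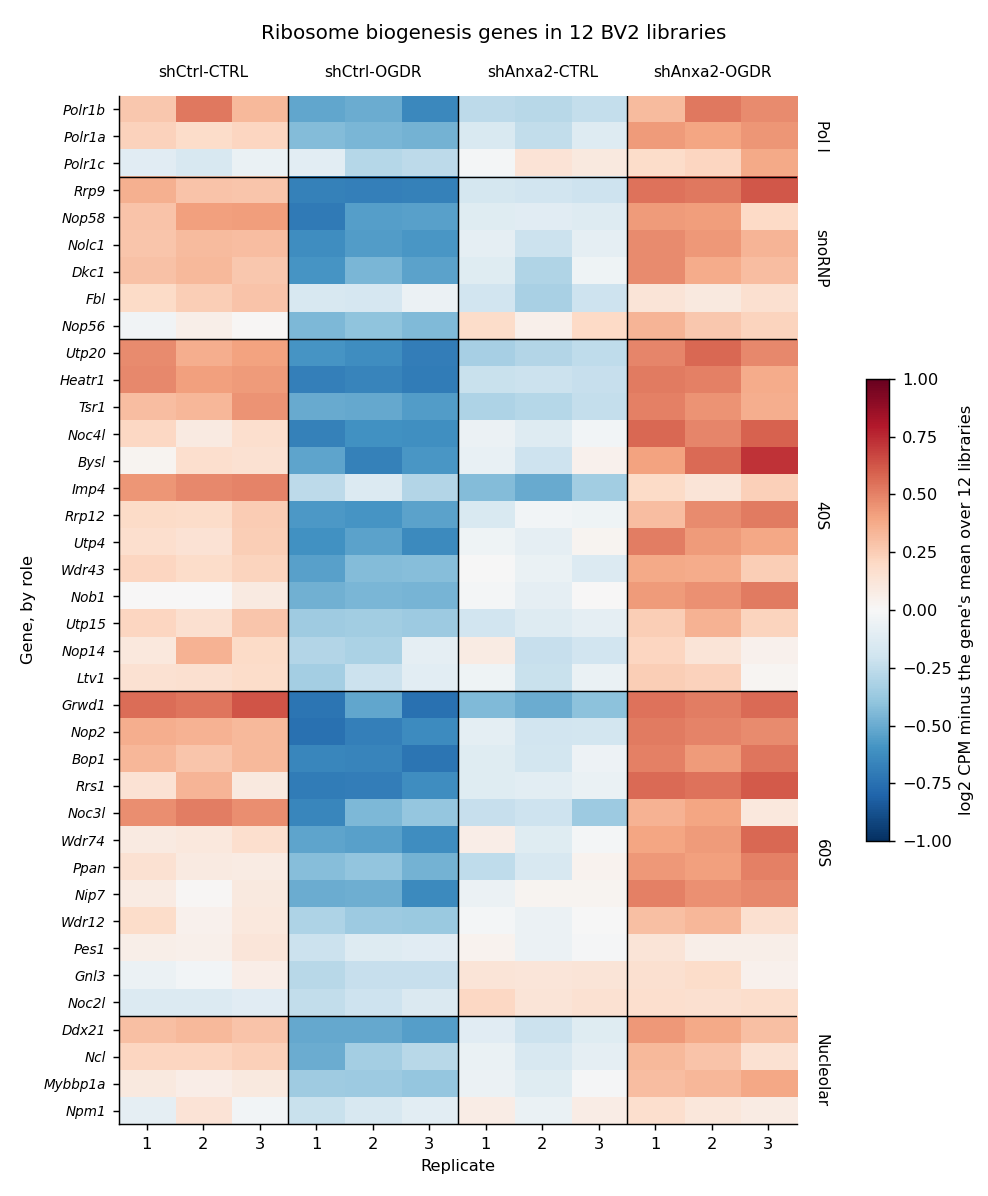
Heat map of the 38 genes (rows, grouped by role, with the gene whose OGD/R change differed most between the lines at the top of each role) in the 12 libraries (columns, 3 replicates per group). Colour is the gene's log2 CPM minus its own mean over the 12 libraries. The shCtrl-OGDR columns are blue in nearly every row and the shAnxa2-OGDR columns red, while some genes, among them Pes1, Noc2l, Gnl3, Polr1c and Npm1, show little colour.

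In shCtrl cells, OGD/R lowered the set. Of the 38 genes 36 fell and none rose, with a median log2 fold change of -0.69, whereas 31% of all genes tested fell, 32.4% rose and their median was 0.0045. Calls and adjusted p-values here and below are from the quasi-likelihood F test of edgeR, adjusted over all genes by Benjamini-Hochberg, with a call at an adjusted p under 0.05. Libraries did not overlap for 37 of the 38 genes (33.3% of all genes tested, in the same direction). The largest falls, given as log2 fold change ± SE, were in Grwd1, a histone-binding protein that joins 60S precursors (-1.23 ± 0.0616), Heatr1 of the small subunit processome (-1.12 ± 0.0482), Utp20 of the same complex (-1.04 ± 0.0488) and Nop2, an rRNA methyltransferase of the 60S subunit (-1.03 ± 0.0474). These were the only 4 past a 2-fold fall (2.16% of all genes tested). The 2 genes without a call were Polr1c, shared by RNA polymerases I and III (-0.10 ± 0.0655, adjusted p = 0.174), and Noc2l, a 60S factor that also binds histones (-0.07 ± 0.0453, adjusted p = 0.185). The call on Npm1 (-0.17 ± 0.0541, adjusted p = 0.00759) was lost without shCtrl-CTRL replicate 2 (-0.097, adjusted p = 0.124) or without shCtrl-OGDR replicate 1 (-0.13, adjusted p = 0.0592).

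In shAnxa2 cells, the same treatment raised the set. In all, 34 of the 38 genes rose, none fell, and the median log2 fold change was 0.50, against 28.2% of all genes tested that rose, 26.8% that fell and a median of 0.0044. Grwd1 rose most (0.99 ± 0.0617), then Utp20 (0.80 ± 0.0485), the U3 snoRNA-binding protein Rrp9 (0.75 ± 0.0471) and the pre-40S factor Tsr1 (0.72 ± 0.050). No member rose 2-fold. The 4 without a call were Npm1 (0.09 ± 0.0541), Pes1 (0.09 ± 0.0474), Noc2l (0.00 ± 0.0452) and Gnl3 (0.01 ± 0.0480). Calls on Nop56 (0.13), Polr1c (0.19) and Nop14 (0.24) were each lost when some single libraries were left out. The call on Nop56 was also lost with upper-quartile normalization (0.089), library totals (0.11), no filter (0.10) and only the 2 groups (0.13), and that on Polr1c with upper-quartile normalization (0.14). Nop56 was at 0.089, 0.10 and 0.13 without shAnxa2-CTRL replicate 2, shAnxa2-OGDR replicate 1 and shAnxa2-OGDR replicate 2. Polr1c was at 0.15 and 0.12 without shAnxa2-CTRL replicate 1 and shAnxa2-OGDR replicate 3, and Nop14 at 0.18, 0.20 and 0.20 without shAnxa2-CTRL replicate 2, shAnxa2-CTRL replicate 3 and shAnxa2-OGDR replicate 1.

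The opposite signs were tested directly by the interaction, the OGD/R log2 fold change in shAnxa2 cells minus that in shCtrl cells. It was called above 0 for 37 of the 38 genes, with a median of 1.26 over the 38. Of all genes tested, 34.9% were called above 0 (70% in either direction), and their median was -0.0061. Grwd1 (2.22 ± 0.0871, adjusted p = 1.27e-16), Utp20 (1.85 ± 0.0688, adjusted p = 5.57e-17), Heatr1 (1.81 ± 0.0679, adjusted p = 6.06e-17) and Rrp9 (1.73 ± 0.0673, adjusted p = 1.09e-16) had the largest values, and Noc2l (0.07 ± 0.0640, adjusted p = 0.313) was the gene without a call. A fall in control cells and a rise in knockdown cells, both called, occurred in 33 of the 38 genes and in 22.4% of all genes tested. Across the 38 genes, those that fell further in control cells rose further in knockdown cells (Pearson's r = -0.899, a description over genes that share libraries and 1 fit). The same correlation over all genes tested was not computed, so it is not known whether this value is particular to the 38.

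**Figure D2:**
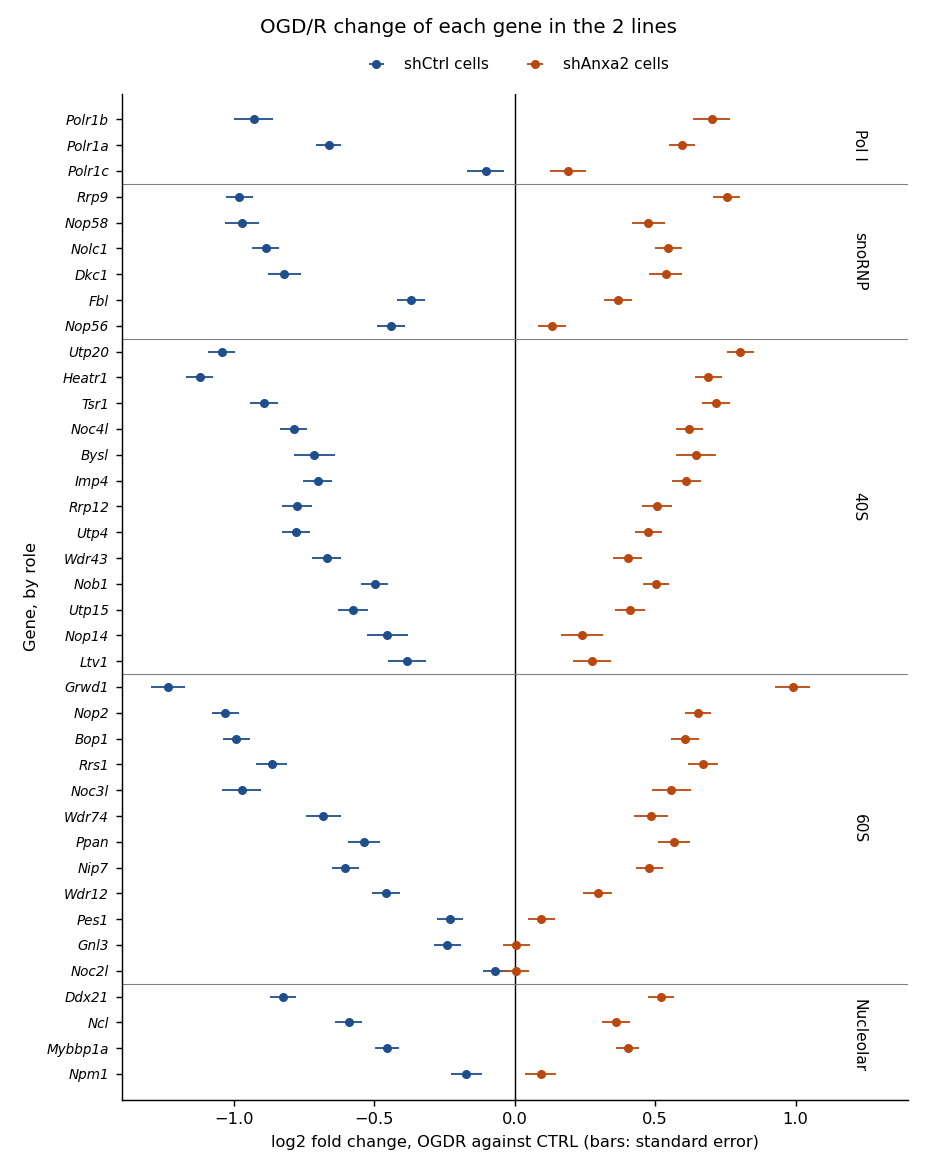
Log2 fold change of OGDR against CTRL for each of the 38 genes (rows, by role), in shCtrl cells (blue) and shAnxa2 cells (orange), with bars for 1 standard error from the edgeR fit over 12 libraries. Every blue point lies below 0 and every orange point at or above 0, and the distance between the 2 points ranges from 2.22 for Grwd1 to 0.07 for Noc2l.

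Without treatment, knockdown cells had less RNA of most of these genes. Compared with shCtrl-CTRL, 30 of the 38 were lower in shAnxa2-CTRL and 4 were higher, with a median of -0.31, against 29.7% lower and 29.5% higher over all genes tested. Grwd1 (-1.03 ± 0.0611), the U3 protein Imp4 (-0.90 ± 0.0515), the 60S factor Noc3l (-0.74 ± 0.0690) and Utp20 (-0.70 ± 0.0483) were lowest. The 4 higher genes were Noc2l (0.29 ± 0.0452, adjusted p = 6.00e-06), Polr1c (0.19 ± 0.0649, adjusted p = 0.0164), Nop56 (0.13 ± 0.0499, adjusted p = 0.0236) and Gnl3 (0.13 ± 0.0479, adjusted p = 0.0193). Among the 30 lower genes, the small differences of Bysl (-0.19), Wdr12 (-0.14) and Wdr74 (-0.14) lost their call in some settings, that of Wdr74 in most, and 27 to 30 were lower when a library was left out. With upper-quartile normalization all 3 were without a call (-0.15, -0.10 and -0.10). Wdr74 was also without a call with DESeq2 (-0.14), RLE (-0.14), the 1 CPM filter (-0.14), no filter (-0.13), only the 2 groups (-0.14) and the replicate number as a block (-0.14). Bysl was at -0.16, -0.17, -0.19 and -0.13 without shCtrl-CTRL replicate 2, shCtrl-CTRL replicate 3, shAnxa2-CTRL replicate 1 and shAnxa2-CTRL replicate 2. Wdr12 was at -0.11 and -0.13 without shCtrl-CTRL replicate 1 and shAnxa2-CTRL replicate 2. Wdr74 was at -0.16 to -0.094 without any 1 of the 6 untreated libraries other than shAnxa2-CTRL replicate 1, or without shCtrl-OGDR replicate 1, shCtrl-OGDR replicate 2 or shAnxa2-OGDR replicate 2. Only Noc2l of the 4 higher genes kept its call in every setting tried. Without shCtrl-CTRL replicate 1 the number higher was 2, with Nop56 at 0.11 and Gnl3 at 0.105. Nop56 also lost its call without shAnxa2-CTRL replicate 1 (0.12) or 3 (0.11), and Polr1c without replicate 2 of shCtrl-CTRL (0.17) or of shAnxa2-CTRL (0.16).

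After OGD/R the relation turned. All 38 genes were higher in shAnxa2-OGDR than in shCtrl-OGDR, with no overlap between libraries for any of them and a median of 0.90, where 33.8% of all genes tested were called higher and 34.6% did not overlap in that direction. The largest differences were in Rrs1, which helps bring the 5S rRNA into the 60S particle (1.24 ± 0.0554, 2.36-fold), Rrp9 (1.24 ± 0.0481), Grwd1 (1.20 ± 0.0621) and Nop2 (1.18 ± 0.0475). A 2-fold difference was passed by 14 of the 38, against 3.72% of all genes tested. The smallest were in Pes1 (0.23 ± 0.0474, adjusted p = 1.25e-04) and the box C/D methyltransferase Fbl (0.26 ± 0.0493, adjusted p = 6.87e-05).

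The 2 groups with high levels differed by small amounts (log2 fold changes of -0.29 to 0.45), and the genes called were mostly higher in shAnxa2-OGDR. Calls of higher were more frequent among the 38 than over all genes tested. Between shAnxa2-OGDR and shCtrl-CTRL, a comparison chosen after seeing the data, 20 genes were higher and 2 lower (21.5% and 18.4% of all genes tested), with a median of 0.13. The 2 lower were Imp4 (-0.29 ± 0.0504) and Noc3l (-0.19 ± 0.0675), while Grwd1 (-0.04 ± 0.0581) and Heatr1 (0.02 ± 0.0472) had no call. Between shAnxa2-CTRL and shCtrl-OGDR, likewise chosen after seeing the data, 34 were higher and 1, Imp4 (-0.19 ± 0.0521), was lower (22.1% and 22% of all genes tested), with a median of 0.37.

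RNA polymerase I makes the rRNA precursor. Its second-largest subunit, Polr1b, had 70.4, 84.2 and 73.1 CPM in shCtrl-CTRL and 40.6, 41.4 and 37.3 CPM in shCtrl-OGDR, and 48.8, 48.1 and 49.6 CPM in shAnxa2-CTRL and 72.8, 84.1 and 81.1 CPM in shAnxa2-OGDR. The libraries of either line did not overlap between treatments, and the treated knockdown libraries reached the range of untreated control cells. Its log2 fold change was -0.93 ± 0.0678 in shCtrl cells and 0.70 ± 0.0675 in shAnxa2 cells, with an interaction of 1.63 ± 0.0957, adjusted p = 2.13e-13. The largest subunit, Polr1a, moved the same way (-0.66 ± 0.0457 and 0.60 ± 0.0456). Polr1c had 48.6, 47.1 and 50.4 CPM in shCtrl-CTRL, 48.9, 43.1 and 43.9 CPM in shCtrl-OGDR, 52.0, 57.8 and 56.2 CPM in shAnxa2-CTRL and 59.7, 61.2 and 68.5 CPM in shAnxa2-OGDR. For this shared subunit the 2 shCtrl groups overlapped, and both knockdown groups stood above both. Its interaction was small (0.29 ± 0.0920, adjusted p = 0.00704).

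The 6 snoRNP genes all fell in shCtrl cells (median log2 fold change -0.85) and all rose in shAnxa2 cells (median 0.51). Of all genes tested, 31% fell in shCtrl cells and 28.2% rose in shAnxa2 cells. Nolc1, which shuttles snoRNPs and had the highest level per kilobase among them, had 847, 870.4 and 862 CPM in shCtrl-CTRL and 454, 474 and 467 CPM in shCtrl-OGDR. In knockdown cells it had 654, 601 and 655 CPM untreated and 965, 943 and 883 CPM after OGD/R. Control cells after OGD/R held the lowest and knockdown cells after OGD/R the highest values, and no groups overlapped. The interaction was 1.43 ± 0.0664, adjusted p = 2.75e-15. Rrp9 had 105, 101 and 99.7 CPM in shCtrl-CTRL, 51.8, 51.4 and 51.7 CPM in shCtrl-OGDR, 72.8, 72.2 and 71.5 CPM in shAnxa2-CTRL and 120.0, 119 and 127 CPM in shAnxa2-OGDR. No groups of Rrp9 overlapped, and the treated control libraries were nearly equal. The interaction of Rrp9 was 1.73 ± 0.0673, adjusted p = 1.09e-16. The pseudouridine synthase Dkc1 of box H/ACA snoRNPs (-0.82 and 0.54) and the box C/D core protein Nop58 (-0.97 and 0.48) followed the same course in shCtrl and shAnxa2 cells, whereas Fbl (-0.37 and 0.37) and Nop56 (-0.44 and 0.13) had smaller values.

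All 13 genes of the small subunit fell in shCtrl cells (median -0.71, range -1.12 to -0.38) and rose in shAnxa2 cells (median 0.51, range 0.24 to 0.80). Of all genes tested, 31% fell in shCtrl cells and 28.2% rose in shAnxa2 cells. Utp20 had 282, 262 and 269 CPM in shCtrl-CTRL and 136, 132 and 126 CPM in shCtrl-OGDR, and 162, 167 and 171 CPM in shAnxa2-CTRL and 286, 303 and 284 CPM in shAnxa2-OGDR. The first and last of these groups were neighbours without a call between them (0.10 ± 0.0477, adjusted p = 0.0914), and the other groups stood well below them. Its interaction was 1.85 ± 0.0688, adjusted p = 5.57e-17. Noc4l, a processome protein that works with Nop14 and had the highest level per kilobase of this role, had 173, 159.7 and 169 CPM in shCtrl-CTRL, 93.9, 98.7 and 97.9 CPM in shCtrl-OGDR, 144, 137 and 147 CPM in shAnxa2-CTRL and 223, 210.0 and 225 CPM in shAnxa2-OGDR. No groups of Noc4l overlapped, and the interaction was 1.41 ± 0.0680, adjusted p = 5.93e-15.

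Among the processome subunits that act nearest to transcription of the precursor, the interaction was 1.81 ± 0.0679 for Heatr1, 1.25 ± 0.0704 for Utp4, 1.07 ± 0.0724 for Wdr43 and 0.99 ± 0.0765 for Utp15. The late factors that accompany the 40S particle ranged from 1.61 ± 0.0708 for Tsr1 through 1.36 ± 0.103 for Bysl, 1.28 ± 0.0750 for the export factor Rrp12 and 1.00 ± 0.0659 for Nob1, the nuclease that trims the end of 18S rRNA, to 0.66 ± 0.0945 for Ltv1. Among the genes named here, the early ones thus ranged from 0.99 to 1.81 and the late ones from 0.66 to 1.61, so the ranges overlapped. Imp4 had the largest difference of the small subunit genes between untreated lines, at 178, 184 and 186 CPM in shCtrl-CTRL and 97.6, 93.1 and 103 CPM in shAnxa2-CTRL. After OGD/R it had 109.8, 119.6 and 107 CPM in shCtrl and 151, 144 and 155 CPM in shAnxa2 cells. The lowest of its 4 groups was thus shAnxa2-CTRL, as it also was for the snoRNP gene Fbl.

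The 60S genes had the widest range of interaction, from 0.07 to 2.22. Grwd1 had 72.3, 71.0 and 75.8 CPM in shCtrl-CTRL and 29.5, 34.2 and 29.3 CPM in shCtrl-OGDR, a 2.35-fold fall, and 36.1, 34.7 and 36.8 CPM in shAnxa2-CTRL and 71.5, 69.9 and 72.4 CPM in shAnxa2-OGDR, a 1.99-fold rise. The 2 high groups overlapped and lay above both low groups, which did not overlap with each other. Pes1, with the highest level per kilobase of this role, had 373, 371 and 389 CPM in shCtrl-CTRL, 309, 327 and 329.9 CPM in shCtrl-OGDR, 366, 343 and 355 CPM in shAnxa2-CTRL and 391, 372 and 373 CPM in shAnxa2-OGDR. The treated control libraries of Pes1 were the lowest, those of shCtrl-CTRL and shAnxa2-OGDR overlapped, and the interaction was 0.33 ± 0.0669, adjusted p = 1.39e-04. Noc2l had no call for OGD/R in either line and was higher in shAnxa2 cells, with 286, 288 and 291 CPM and 266, 274 and 285 CPM in the shCtrl groups and 364, 346 and 351 CPM and 354, 353 and 356 CPM in the shAnxa2 groups, CTRL first. Gnl3 (nucleostemin), a GTPase abundant in stem cells, fell a little in shCtrl cells (-0.24 ± 0.0482, adjusted p = 1.31e-04) and was at 0.01 ± 0.0480 in shAnxa2 cells. Nop2 (1.68 ± 0.0666), Bop1 (1.60 ± 0.0696), Rrs1 (1.54 ± 0.0774), Noc3l (1.53 ± 0.0985), Wdr74 (1.17 ± 0.0862), Ppan (1.11 ± 0.0815), Nip7 (1.08 ± 0.0683) and Wdr12 (0.75 ± 0.0719) lay between Grwd1 and Pes1 in their interaction.

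Of the 4 abundant nucleolar proteins, the RNA helicase Ddx21 had the largest interaction (1.35 ± 0.0659, adjusted p = 7.70e-15). It had 592, 599.8 and 584 CPM in shCtrl-CTRL, 337, 337 and 328 CPM in shCtrl-OGDR, 443, 415 and 441 CPM in shAnxa2-CTRL and 649, 625 and 592 CPM in shAnxa2-OGDR. Untreated control and treated knockdown libraries overlapped, and the other 2 groups lay below them and apart. Npm1 had 948, 1108 and 989.6 CPM in shCtrl-CTRL, 863, 902 and 938 CPM in shCtrl-OGDR, 1062, 962 and 1061 CPM in shAnxa2-CTRL and 1134, 1090.0 and 1064 CPM in shAnxa2-OGDR, with shCtrl-CTRL replicate 2 above its group. Its interaction was 0.26 ± 0.0765, adjusted p = 0.00368. Ncl, at 2172 to 3820 CPM, fell in shCtrl cells (-0.59 ± 0.0487) and rose in shAnxa2 cells (0.36 ± 0.0486), and Mybbp1a did likewise (-0.46 ± 0.0415 and 0.40 ± 0.0415).

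**Figure D3:**
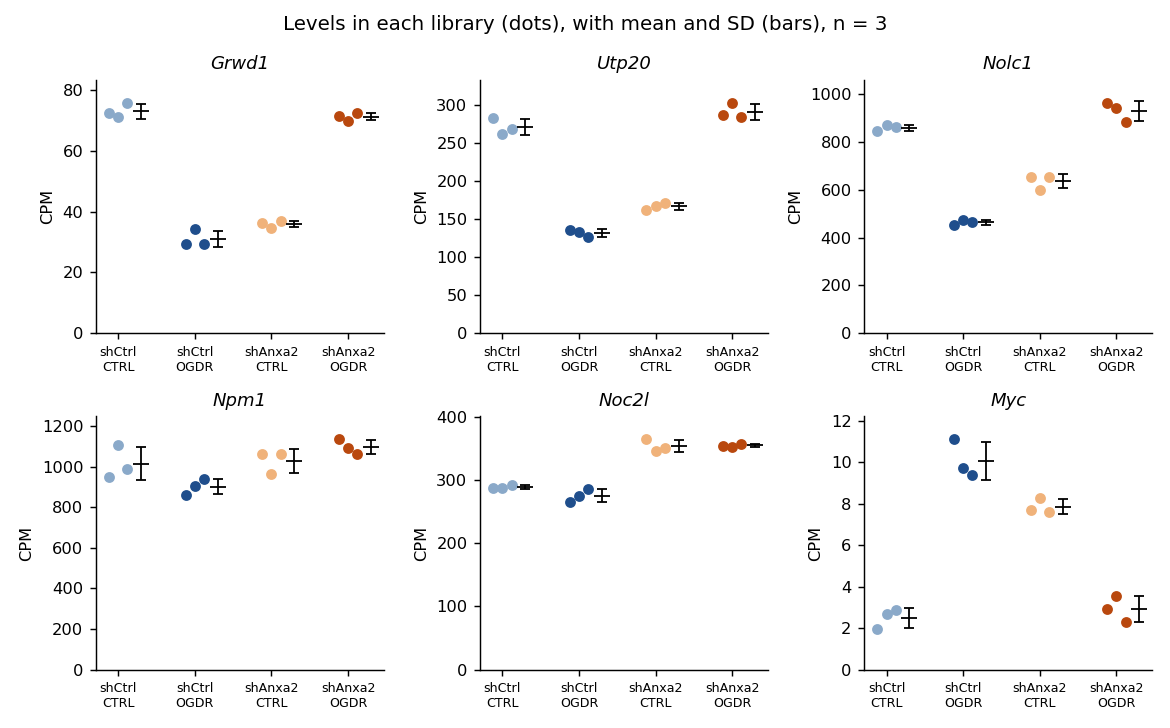
Level in CPM (axis from 0) of Grwd1, Utp20, Nolc1, Npm1, Noc2l and Myc in each of the 12 libraries (dots), with the group mean and SD (bars, n = 3). Grwd1, Utp20 and Nolc1 are low in shCtrl-OGDR and shAnxa2-CTRL and high in the other groups, Npm1 varies little, Noc2l is higher in both shAnxa2 groups, and Myc is high where Grwd1 is low.

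Among genes whose products work as a complex, some pairs differed in how far they moved. Ratios of counts within a library do not depend on normalization, and the pairs were chosen after their values were seen. In the PeBoW complex of 60S assembly, Bop1 over Pes1 was 0.952 ± 0.0221 (SD, n = 3) in untreated and 0.563 ± 0.0343 in treated control cells, and 0.754 ± 0.0316 in untreated and 1.07 ± 0.0444 in treated knockdown cells. The same ratio for Wdr12 over Pes1 had a smaller span, from 0.499 ± 0.0282 to 0.427 ± 0.0255 in shCtrl cells and from 0.482 ± 0.0111 to 0.553 ± 0.0332 in shAnxa2 cells. The 2 paired scaffolds of box C/D snoRNPs were unequal as well, with Nop58 over Nop56 at 0.812 ± 0.0259 and 0.563 ± 0.0319 in shCtrl cells and 0.526 ± 0.0321 and 0.664 ± 0.0394 in shAnxa2 cells, CTRL first.

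Noc3l over Noc2l, partners in a 60S precursor, went from 0.378 ± 0.00852 to 0.202 ± 0.0130 in shCtrl cells and stood at 0.184 ± 0.0113 and 0.270 ± 0.0296 in shAnxa2 cells. Polr1b over Polr1c was 1.56 ± 0.196 and 0.880 ± 0.0698 in shCtrl cells and 0.884 ± 0.0530 and 1.26 ± 0.102 in shAnxa2 cells. Noc4l over Nop14 of the small subunit processome was 1.38 ± 0.170 and 1.09 ± 0.0896 in shCtrl cells and 1.48 ± 0.164 and 1.92 ± 0.145 in shAnxa2 cells. Polr1b over Polr1a, the largest subunits of RNA polymerase I, was 0.304 ± 0.0346 and 0.252 ± 0.0120 in shCtrl cells and 0.254 ± 0.00767 and 0.273 ± 0.0224 in shAnxa2 cells, where its libraries overlapped (exact permutation p = 0.30). For each of the other 6 ratios the CTRL and OGDR libraries of either line did not overlap. The exact two-sided permutation test over 3 and 3 libraries gave p = 0.10 for each, the smallest it allows, and the Benjamini-Hochberg value over the 28 tests made was 0.117, so none could pass the threshold.

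**Figure D4:**
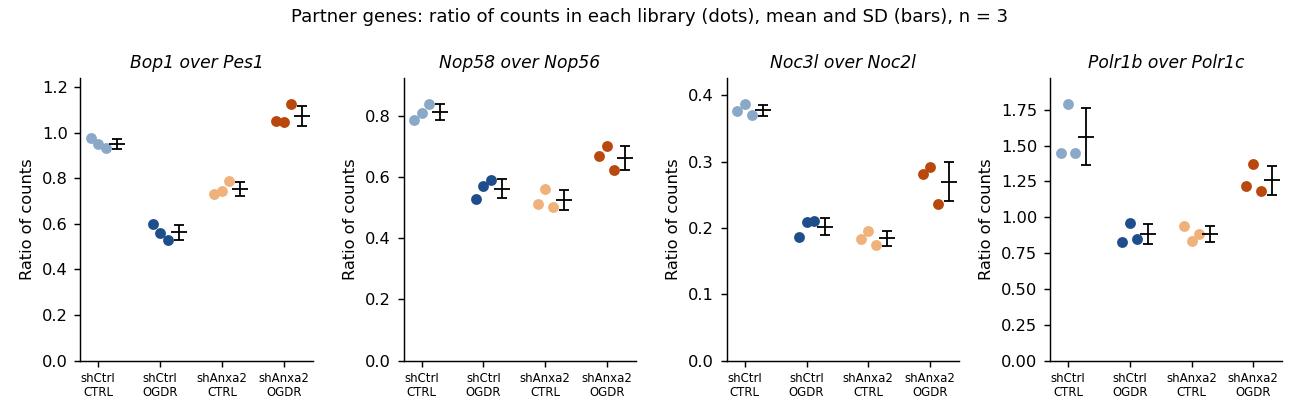
Ratio of counts (axis from 0) between partner genes in each library (dots), with the group mean and SD (bars, n = 3). Bop1 over Pes1, Nop58 over Nop56, Noc3l over Noc2l and Polr1b over Polr1c are all lower in shCtrl-OGDR than in shCtrl-CTRL and higher in shAnxa2-OGDR than in shAnxa2-CTRL.

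A wider list of 117 other ribosome biogenesis genes, of which 116 were tested, went the same way with smaller medians. It too was chosen with earlier results of these data known, so it is not an independent check. After OGD/R, 96 fell and 4 rose in shCtrl cells (median -0.44), and 91 rose and 6 fell in shAnxa2 cells (median 0.32). Over all genes tested, 31% fell and 32.4% rose in shCtrl cells, and 28.2% rose and 26.8% fell in shAnxa2 cells. The interaction was called above 0 for 100 and below 0 for 5 (median 0.77), where 34.9% of all genes tested were called above 0. Its largest values were in Taf1c (1.92 ± 0.102), a subunit of the selectivity factor that brings RNA polymerase I to its promoter, the 60S factor Urb1 (1.86 ± 0.0665) and the RNA polymerase I subunit Cd3eap (1.80 ± 0.106). Its lowest were in Taf1b (-1.24 ± 0.122), another subunit of that selectivity factor, the 60S factor Nop53 (-0.94 ± 0.0870) and the kinase Riok3 (-0.49 ± 0.0716). The remaining 2 below 0, Nsa2 and Gnl3l, were at -0.49 and -0.21.

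Among genes for the proteins of the finished cytosolic ribosome, more rose than fell in shCtrl cells and more fell than rose in shAnxa2 cells. For this and the next lists, 32.4% of all genes tested rose and 31% fell in shCtrl cells. In shAnxa2 cells 28.2% rose and 26.8% fell, and 29.5% were higher and 29.7% lower in untreated knockdown cells. Of 79 cytosolic ribosomal protein genes, 52 rose and 1 fell after OGD/R in shCtrl cells (median 0.20), whereas 11 rose and 34 fell in shAnxa2 cells (median -0.10). In untreated cells 60 of them were higher and 2 lower in shAnxa2 than in shCtrl (median 0.33), where 30 of the 38 assembly genes were lower. Without shAnxa2-OGDR replicate 3, 7 cytosolic genes rose in shAnxa2 cells and 3 fell in shCtrl cells. The 1 that fell in shCtrl cells became 2 without shCtrl-CTRL replicate 1, shAnxa2-CTRL replicate 2, shAnxa2-CTRL replicate 3 or shAnxa2-OGDR replicate 1 and 0 without shCtrl-OGDR replicate 3. The 2 lower between untreated lines became 0 without shCtrl-CTRL replicate 2 and 1 without shCtrl-CTRL replicate 3 or shAnxa2-CTRL replicate 2. Ribosomal protein genes have many processed pseudogenes, and their counts are uncertain for that reason. Of 77 mitochondrial ribosomal protein genes tested, 15 rose and 31 fell in shCtrl cells (median -0.096) and 33 rose and 9 fell in shAnxa2 cells (median 0.12). A list of 30 genes of S phase and mitosis moved with the 38 genes: 25 fell and 1 rose in shCtrl cells (median -0.36), 26 rose and 1 fell in shAnxa2 cells (median 0.38), and 24 were lower and 1 higher in untreated knockdown cells (median -0.37). Its part in the changes of the ribosome biogenesis genes was not tested.

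**Figure D5:**
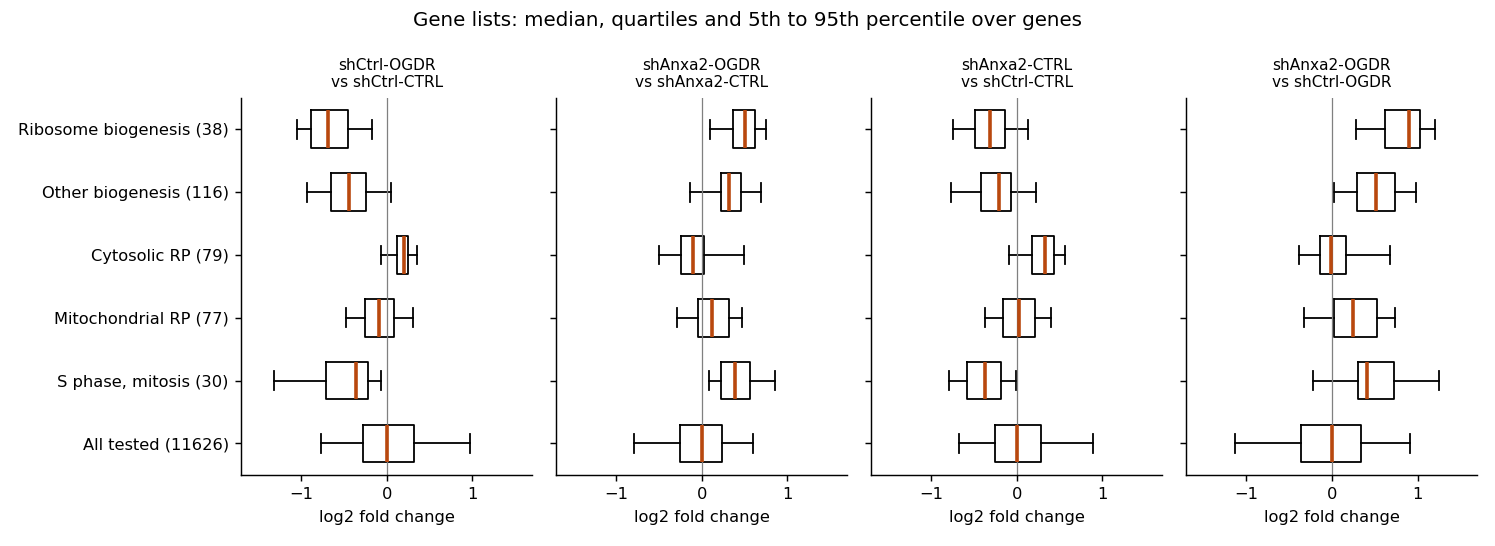
Log2 fold changes over the genes of each list (number of genes in brackets) in the 4 comparisons, as median (orange line), quartiles (box) and 5th to 95th percentile (whiskers). The 38 ribosome biogenesis genes have medians of -0.69, 0.50, -0.31 and 0.90 from left to right, cytosolic ribosomal proteins 0.20, -0.10, 0.33 and -0.0077, and all 11626 genes tested lie centred on 0.

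Myc moved against the set. It had 1.96, 2.71 and 2.87 CPM in shCtrl-CTRL and 11.1, 9.73 and 9.38 CPM in shCtrl-OGDR, and 7.73, 8.28 and 7.59 CPM in shAnxa2-CTRL and 2.91, 3.54 and 2.28 CPM in shAnxa2-OGDR, from 47 to 284 counts per library. Its high groups were the 2 groups in which most ribosome biogenesis genes were low, with no overlap between high and low libraries. Myc rose in shCtrl cells (1.99 ± 0.152, adjusted p = 4.58e-11), fell in shAnxa2 cells (-1.42 ± 0.159, adjusted p = 6.98e-08) and had an interaction of -3.41 ± 0.220, adjusted p = 1.20e-12. The Max partners Mxd1 and Mxi1, which form repressive pairs, rose in shCtrl cells (1.19 ± 0.0679 and 0.53 ± 0.0522) and fell in shAnxa2 cells (-0.82 ± 0.0722 and -0.41 ± 0.0527). Mxd4 of the same family had 0.78 ± 0.104 and -0.69 ± 0.142, but unlike Myc it was lower in untreated knockdown than in untreated control cells (-0.999 ± 0.119 against 1.63 ± 0.157 for Myc). Max itself fell in shCtrl cells (-0.30 ± 0.0490) and rose in shAnxa2 cells (0.23 ± 0.0490), as the ribosome biogenesis genes did. Mxd3, another repressive Max partner with 31 to 86 counts per library, went the other way from Mxd1 and Mxi1, with -0.73 ± 0.204 in shCtrl cells, 0.61 ± 0.195 in shAnxa2 cells and an interaction of 1.34 ± 0.282, adjusted p = 1.77e-04. The remaining genes of the list, Mnt (-0.21 ± 0.108), Mga (0.24 ± 0.109) and Mlx (-0.06 ± 0.0770), had no interaction call. Mnt gained one without a filter (-0.24), with upper-quartile normalization (-0.28) and without shCtrl-CTRL replicate 2 (-0.29), shCtrl-OGDR replicate 3 (-0.27) or shAnxa2-OGDR replicate 3 (-0.28), and Mga with limma voom (0.25) and without shCtrl-OGDR replicate 3 (0.30), shAnxa2-CTRL replicate 2 (0.29), shAnxa2-OGDR replicate 1 (0.27) or shAnxa2-OGDR replicate 3 (0.27). These are RNA levels, and no protein or binding was measured here.

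The E-box CACGTG, the preferred site of Myc and Max and also read by other factors, was searched in RefSeq windows from 250 bases before to 50 bases after each start site on GRCm38.p6. The word is its own reverse complement, so both strands were covered, and no other word was searched. It was present for 10 of the 33 genes with a window (30.3%), against 8.09% of the 27025 genes in the promoter table and 11.8% of the 9373 genes tested that had a window. Bop1, Fbl, Npm1, Rrp12 and Rrs1 were not in the promoter table. The 10 sites are shown because these genes include the largest movers of the set as well as the little-changed Pes1, each in lower case with the E-box in capitals and up to 12 bases on either side, from the strand of the gene, largest interaction first.
Grwd1, chr7:45830740-45830767, minus strand: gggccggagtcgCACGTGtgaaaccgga
Utp20, chr10:88826765-88826789, minus strand: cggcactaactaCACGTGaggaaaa
Nop2, chr6:125131811-125131840, plus strand: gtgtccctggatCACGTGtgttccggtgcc
Tsr1, chr11:74898092-74898121, plus strand: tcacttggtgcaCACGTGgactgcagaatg
Imp4, chr1:34439696-34439725, plus strand: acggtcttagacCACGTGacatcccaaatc
Utp4, chr8:106893643-106893672, plus strand: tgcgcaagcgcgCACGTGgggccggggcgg
Wdr43, chr17:71616220-71616249, plus strand: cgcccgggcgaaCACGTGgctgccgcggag
Mybbp1a, chr11:72441355-72441376, plus strand: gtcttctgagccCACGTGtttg
Ltv1, chr10:13193092-13193121, minus strand: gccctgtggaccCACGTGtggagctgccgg
Pes1, chr11:3963965-3963994, plus strand: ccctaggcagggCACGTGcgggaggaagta
In 8 of the 10 the E-box began after the annotated start, between base 3 (Pes1) and base 41 (Mybbp1a), and in Nop2 and Imp4 it began 60 and 121 bases before it. The whole upstream stretch of Nop2, the gene with the largest interaction among those with an upstream E-box, is given as an example.
Nop2, chr6:125131633-125131882, plus strand, 250 bases before the start: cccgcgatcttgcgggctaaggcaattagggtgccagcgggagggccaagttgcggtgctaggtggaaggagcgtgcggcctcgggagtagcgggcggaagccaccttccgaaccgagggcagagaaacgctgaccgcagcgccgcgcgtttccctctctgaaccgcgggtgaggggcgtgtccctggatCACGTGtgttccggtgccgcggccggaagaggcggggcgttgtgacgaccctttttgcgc
The median interaction was 1.28 (range 0.33 to 2.22) over the 10 genes with the word and 1.17 (range 0.07 to 1.81) over the 23 without it, so the ranges largely overlapped. Grwd1 and Utp20 at the top of the set carried it and so did Pes1 near the bottom, while Heatr1 and Rrp9, next to them in the size of the interaction, did not. A match is a description of the letters and shows no binding.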

How the data were processed

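RNA-seq was made of 12 BV2 libraries (4 groups, 3 libraries each). The authors deposited counts of reads per protein-coding gene, without normalization. The submitters' processing notes name HISAT2 2.0.4 and mm39, and how the counts were made is not given in the sources used here for these cells. The table also holds 12 per-sample columns of normalized values and the authors' own comparisons (fold changes and p-values), and neither were used. Genes reaching 0.5 CPM in 3 or more libraries were fitted with edgeR 4.0.16 in R 4.3.3 (TMM, factors 0.98 to 1.016, 1 quasi-likelihood model over the 12 libraries, biological coefficient of variation 5.35%, Benjamini-Hochberg over 11626 genes, call at adjusted p under 0.05). The SE is the log2 fold change divided by the square root of F. The steps were tested on simulated counts in which few genes changed, in 1 group only. That test does not cover data in which most genes change, as here. Replicates of a group differed by more than counting noise (chi-square per gene 3.96 to 12.9).

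The 38 genes and the other lists were chosen with earlier results of these data known. The rule for naming genes took, in each role, the highest level per kilobase and the largest interaction, and in each comparison the 4 largest rises and falls, exceptions of 5 or fewer, Myc, Anxa2, and 3 rises and 3 falls of the wider list. Other genes were named after their values were seen. Exon lengths (all exons of a gene merged) come from GENCODE vM21, promoter sequences from RefSeq. Alternatives were RLE, upper-quartile or no normalization factors, no filter or 1 CPM, DESeq2 1.42.0, limma voom 3.58.1, a replicate block, fits of only 2 groups, adjusted p under 0.01 and each library left out. Python 3.11.15 with pandas and matplotlib drew the plots. One microglial marker is not reported here.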

Additional observations from a re-analysis of the deposited data

Results flagged for a closer look

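The response to OGD/R differed between the lines by the interaction test of edgeR for 37 of the 38 genes, among them Grwd1 (2.22), Utp20 (1.85), Rrp9 (1.73), Polr1b (1.63), Nolc1 (1.43), Noc4l (1.41), Ddx21 (1.35), Pes1 (0.33), Polr1c (0.29) and Npm1 (0.26), all on the log2 scale. The same test gave -3.41 for Myc and -1.74 for Anxa2, the target of the shRNA, which rose in shCtrl cells (0.70) and fell in shAnxa2 cells (-1.04) after OGD/R. Over all genes tested 70% were called in either direction. What sets the lines apart was not tested, nor was an exchange of treated and untreated libraries within 1 line, which would make the responses run in the same direction.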

How the results depend on the processing

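Counts of members called were within 1.5 times the reported value under every alternative, apart from the number higher in shAnxa2-CTRL than in shCtrl-CTRL, which was 1 at adjusted p under 0.01 and 2 to 4 with a library left out. Upper-quartile normalization moved the median log2 fold change of the 38 genes to 1.18 for the interaction, 0.46 for OGD/R in shAnxa2 cells, -0.27 between untreated lines and 0.87 after OGD/R. Of 3952 values of single members under the alternatives, 3880 kept their direction and side of the threshold, 44 lost their call and 28 changed sign, all of the last in genes without a call. In shAnxa2 cells after OGD/R, Gnl3 was at -0.0017 with RLE, -0.040 with upper-quartile normalization, -0.022 with library totals, -0.026 without a filter, -0.0022 with the 1 CPM filter, -0.0016 with DESeq2, -0.0025 with only 2 groups and -0.030 to 0.043 with a library left out. Noc2l was at -0.0029, -0.041, -0.023, -0.027, -0.0034, -0.0029, -0.0036 and -0.012 to 0.025 in the same order. Between untreated lines, Npm1 ranged from -0.033 to 0.091 with a library left out. The cause of these shifts was not tested.

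Replicate numbers did not pair the libraries: deviations of libraries of the same number correlated at -0.051 to 0.135 (median 0.0020), and 6 of 12 libraries correlated best with one of their own number. With the number as a block, 36 members fell in shCtrl cells and 34 rose in shAnxa2 cells after OGD/R. In that fit the interaction was called above 0 for 37, and 38 were higher in shAnxa2-OGDR than in shCtrl-OGDR. Between untreated lines 29 were lower and 4 higher, where Wdr74 lost its call. Over all genes, 7355 were called in shCtrl cells against 7372 without the block. The counts cover RNA relative to the library total, so a change in all RNA per cell would not show, and precursor rRNA and snoRNAs were not analysed here. The smallest difference of a member that was called was 0.13 (log2).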
